A study of Mus musculus with 10 samples.

Results

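The chromatin around 9 genes of semaphorin signalling was followed in 9 ATAC-seq libraries of mouse heart cells. The genes encode 5 class 3 semaphorins (Sema3a, Sema3c, Sema3d, Sema3e and Sema3f), the neuropilins Nrp1 and Nrp2 and the plexins Plxna1 and Plxnd1. A peak was counted for a gene when its summit lay inside the gene or within 25 kb of it on mm10, and a promoter was the stretch within 1 kb of the annotated gene start. By this rule 230 accessible regions of the 184764 found over all libraries belonged to these genes. Of these, 188 were called in at least 2 libraries and were tested, out of 154147 tested in all, and the other 42 were seen in 1 library only.

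The study isolated 3 groups of cells, each represented by 3 libraries. Epicardial cells, the mesothelial covering of the heart, were sorted as CD31-tdTomato+PDPN+ cells from E11.5 or E17.5 hearts, and epicardium-derived cells (EPDCs) as CD31-tdTomato+PDPN- cells at E12.5 (1 library) and E13.5 (2 libraries, 1 of them sequenced as 2 technical replicates and deposited as a single list). Every group carried Rosa26tdTomato and Wt1CreERT2/+ on C57BL/6J, so 1 Wt1 allele carries the tamoxifen-dependent Cre in the epicardium and the EPDCs alike, and every dam received tamoxifen. The tdTomato reporter marks cells in which the Wt1 gene was active when tamoxifen was given, together with their descendants. By the sample labels, a library pooled hearts of littermates, 6 per sample at E11.5, 4 at E17.5 and 4 to 13 at E13.5, for which the study's methods give a narrower range. EPDCs differ from each epicardial group in both sorted population and stage, which cannot be told apart here.

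Class 3 semaphorins are secreted guidance cues. Most of them bind a neuropilin, which holds the ligand, and signal through a plexin, which turns the message into changes of the cytoskeleton and of adhesion. Sema3e is the exception, since it binds plexin D1 directly. In the developing heart these cues are known for patterning the outflow tract, nerves, veins and coronary vessels, and neuropilins also serve as co-receptors of VEGF. ATAC-seq reads open chromatin and not transcription, so the values below say where the DNA of these genes was accessible.

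The sequences below are the centres (151 bp, plus strand, GRCm38.p6, which is mm10) of regions that differed most between groups, and they are shown because the gene accounts that follow turn on them. Distances are from the annotated gene start, negative before it. Capitals mark matches, on either strand, to the letters AGGTGTGA, typical of T-box factors, GGAATG, typical of TEAD factors, AGATAA, typical of factors of the GATA family, TGANTCA, typical of AP-1, GCGNGGGNG, typical of WT1 and EGR factors, and CAGCTG, an E-box. A match is a description of letters and not a bound site.
Sema3f +8.7 kb, intron, called in the 3 E17.5 libraries alone, chr9:107701747-107701897: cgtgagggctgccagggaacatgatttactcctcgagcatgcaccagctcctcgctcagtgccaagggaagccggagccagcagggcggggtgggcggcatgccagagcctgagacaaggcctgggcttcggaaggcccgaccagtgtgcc
Sema3f −6.7 kb, between genes, called in the 3 EPDC libraries alone, chr9:107717052-107717202: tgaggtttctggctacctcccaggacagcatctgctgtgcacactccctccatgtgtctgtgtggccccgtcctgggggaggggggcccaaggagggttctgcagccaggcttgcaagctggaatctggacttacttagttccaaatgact
Sema3e +48.1 kb, intron, high in both epicardial groups, chr5:14073278-14073428: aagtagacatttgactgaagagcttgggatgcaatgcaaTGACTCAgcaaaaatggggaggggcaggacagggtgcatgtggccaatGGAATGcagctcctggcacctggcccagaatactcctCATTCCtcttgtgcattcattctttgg
Sema3d +84.7 kb, intron, high in EPDCs, chr5:12468033-12468183: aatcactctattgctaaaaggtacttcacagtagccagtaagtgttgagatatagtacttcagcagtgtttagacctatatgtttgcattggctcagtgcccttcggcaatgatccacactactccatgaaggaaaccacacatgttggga
Sema3a +400.4 kb, intron, high in EPDCs and outside the ranked summits at E17.5, chr5:13525733-13525883: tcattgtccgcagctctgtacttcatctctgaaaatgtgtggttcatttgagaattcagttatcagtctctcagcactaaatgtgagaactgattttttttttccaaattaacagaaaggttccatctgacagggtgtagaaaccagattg
Sema3c +165.8 kb, beyond the gene end, called at E11.5 and in EPDCs, chr5:17739978-17740128: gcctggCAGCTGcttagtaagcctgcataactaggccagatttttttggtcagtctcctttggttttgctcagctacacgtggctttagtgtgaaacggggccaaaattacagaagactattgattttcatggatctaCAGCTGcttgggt
Nrp2 +105.4 kb, intron, high in both epicardial groups, chr1:62808607-62808757: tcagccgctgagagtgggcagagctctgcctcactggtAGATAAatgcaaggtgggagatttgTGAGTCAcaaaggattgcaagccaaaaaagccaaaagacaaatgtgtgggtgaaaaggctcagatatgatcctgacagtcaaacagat
Plxnd1 +3.2 kb, intron, low at E17.5, chr6:115991685-115991835: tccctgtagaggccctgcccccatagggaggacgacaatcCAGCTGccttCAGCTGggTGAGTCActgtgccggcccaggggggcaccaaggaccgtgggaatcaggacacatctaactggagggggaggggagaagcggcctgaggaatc

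RefSeq promoter entries (GRCm38.p6) matched 7 of the 9 genes. The 250 bp before the RefSeq start, on the strand of the gene, are shown for the 2 genes whose promoter accessibility moved most firmly, with the same marks.
Sema3e, plus strand, chr5:14025026-14025275: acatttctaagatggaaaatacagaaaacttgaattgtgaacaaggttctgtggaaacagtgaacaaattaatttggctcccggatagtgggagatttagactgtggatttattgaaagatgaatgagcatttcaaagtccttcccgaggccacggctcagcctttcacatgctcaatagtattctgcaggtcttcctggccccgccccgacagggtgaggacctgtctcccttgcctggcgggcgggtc
Plxnd1, minus strand, chr6:115995006-115995255: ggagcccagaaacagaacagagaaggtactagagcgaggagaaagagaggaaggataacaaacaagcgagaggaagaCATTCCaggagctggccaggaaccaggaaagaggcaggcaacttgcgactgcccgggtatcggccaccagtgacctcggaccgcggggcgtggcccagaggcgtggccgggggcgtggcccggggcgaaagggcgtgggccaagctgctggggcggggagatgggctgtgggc
The share of regions with each motif was compared with that of all regions, without a test. In the 151-bp centres, TEAD letters occurred in 20.2% of the 188 regions and 16.2% of all 154147, AP-1 in 16.0% and 14.1%, E-box in 14.9% and 15.5%, GATA in 12.2% and 12.9%, WT1/EGR in 2.66% and 3.28% and T-box in 0.532% and 0.560%. For promoters the search ran over whole entries of 300 bp, and the 32851 entries held TEAD letters in 14.7%, AP-1 in 7.81%, E-box in 16.3%, GATA in 11.2%, WT1/EGR in 12.3% and T-box in 1.28%. The median GC content of the centres was 48.7% around these genes and 51.0% over all regions.

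Lists held 94909 to 142743 summits, of which 114 to 181 fell in the 9 loci. To compare lists of unequal length, the 94909 strongest summits of each library were ranked by −log10 p and given a rank score from near 100 for the strongest to near 0 for the weakest, and 0 where a region held no summit among them. A score of 0 is thus a weak or uncalled site and does not show closed chromatin. Fragment counts at each summit were solved from the deposited fold enrichment and −log10 p. The genome background was 2.07 to 4.26 fragments per position in 8 libraries and 10.9 in E13.5 EPDC sample 2, and a called summit in the 9 loci held 11 to 781 fragments. Libraries of 1 group correlated at a Spearman coefficient of 0.840 to 0.920 over regions (9 pairs) and libraries of different groups at 0.474 to 0.694 (27 pairs), and no pair of lists shared a summit with the same position and fold enrichment. In such bulk libraries, fewer cells with a site open and a site less open in every cell cannot be told apart.

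The sorted identities were checked on promoters of marker genes. Of 12 epicardial markers, 10 were called in each E11.5 library, all 12 in each E17.5 library and 8 to 10 in EPDCs, with summed scores of 762 to 819, 951 to 982 and 559 to 705, and Msln and Krt19 were uncalled at E11.5 and in EPDCs. Wt1 scored 89.2 to 97.2 in every library, and Upk3b scored 97.0 to 98.7 in the epicardial libraries against 71.6 in E12.5 EPDCs and 25.2 or less in E13.5 EPDCs. Of 10 mesenchymal markers, 8 to 9, 9 to 10 and 10 were called, with summed scores of 498 to 599, 670 to 718 and 732 to 775. Of 10 cardiomyocyte markers, 6 to 8, 5 to 6 and 3 were called (sums 252 to 285, 291 to 340 and 242 to 251), Myl2 and Myh6 in no library. Endothelial markers were called at 4, 4 and 3 to 4 of 9 (sums 227 to 235, 275 to 287 and 235 to 256) and blood markers at 2 to 3 of 8 in each group (84.9 to 124, 131 to 146 and 76.0 to 123). Pecam1, Cdh5, Tie1, Emcn, Ptprc, Csf1r, C1qa, Spi1, Gata1 and Sox10 were uncalled in all 9 libraries. The endothelial and blood sums were highest in the E17.5 libraries, where Egfl7 scored 49.2 to 72.3 against 0 in the 6 other libraries and Cd68 scored 71.2 to 73.0 against 51.1 or less. Single markers differed within a list, as Lyz2 of the blood list scored 25.9 to 51.2 in EPDCs and 0 in all epicardial libraries, and Myl7 of the cardiomyocyte list scored 57.4 to 69.4 at E17.5, 16.3 or less at E11.5 and 0 in EPDCs. All 5 lists thus moved with the groups, and their part in the results below was not tested.

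The regions of these genes were called higher or lower in shares close to those over all regions, the widest gap being among those lower in EPDCs than at E11.5. Between E11.5 and E17.5 epicardium, 23 of 188 regions rose (12.2%, against 11.8% of all regions) and 26 fell (13.8%, against 13.9%). In EPDCs, 25 regions were higher than at E11.5 (13.3%, against 12%) and 33 lower (17.6%, against 13.6%), while 34 were higher than at E17.5 (18.1%, against 17.4%) and 29 lower (15.4%, against 16.5%). The split of higher and lower calls depended on the scale. On the log2 depth-normalized score it was 26 to 50 between the stages and 30 to 58 for EPDCs against E11.5. With all summits ranked it was 14 to 50 and 26 to 48. Over all called regions, higher calls made up 46.1% and 46.9% with the strongest summits of each library ranked. That share was 36.5% and 33.4% on the log2 score and 26.8% and 31.3% with all summits ranked. The split thus moved toward lower calls over all regions as well. With the strongest summits ranked, the median difference was 0 over these regions and over all regions in each comparison. A call means an adjusted p under 0.05 in limma over all regions, and in each region call around these genes the groups did not overlap. The share of calls without overlap was not taken over all regions, and with 3 libraries a group it adds little to the call. The 3 comparisons share libraries, so their counts are not independent of each other. In all, 91 of the 188 regions were called in at least 1 comparison. The matching share over all regions was not taken, so this count does not set these genes apart.

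**Figure D1:**
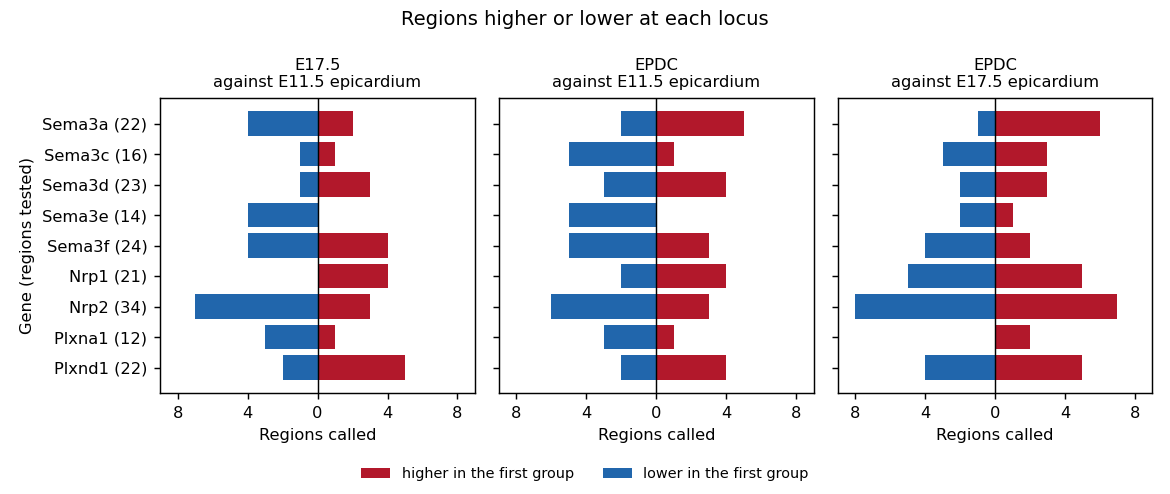
Number of tested regions called higher (right, red) or lower (left, blue) in the first group around each of the 9 genes in the 3 comparisons, at an adjusted p under 0.05 (limma), with the number tested beside each gene. Nrp2, which has the most tested regions (34), carries the most calls between EPDCs and E17.5 epicardium. Of these, 7 are higher (against 17.4% of all regions) and 8 lower (16.5%). Nrp1, with 21 tested, has 4 higher (against 11.8%) and 0 lower (13.9%) between the epicardial stages.

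Most of the accessible sites were intronic. Of the 188 regions, 120 lay in an intron of their own gene, 44 between genes, 11 in an untranslated or non-coding exon and 5 in a coding exon of their gene, and 8 in another gene. A core of 54 regions was called in all 9 libraries (28.7%, against 29.6% of all regions), with members at each gene, from 3 at Sema3e to 9 at Nrp2. Calls confined to the 3 libraries of a single group were few, and they passed the filter only through the group that called them, so no test is given for those named below. At E11.5 there were 9 (against 4.49% of all regions), at E17.5 there were 7 (3.57%) and in EPDCs 6 (3.87%). A further 4 were called in all 6 epicardial libraries and in no EPDC library (2.54%), 6 in E11.5 and EPDC libraries but in no E17.5 library (4.18%), and 1 in E17.5 and EPDC libraries but in no E11.5 library (0.623%).

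**Figure D2:**
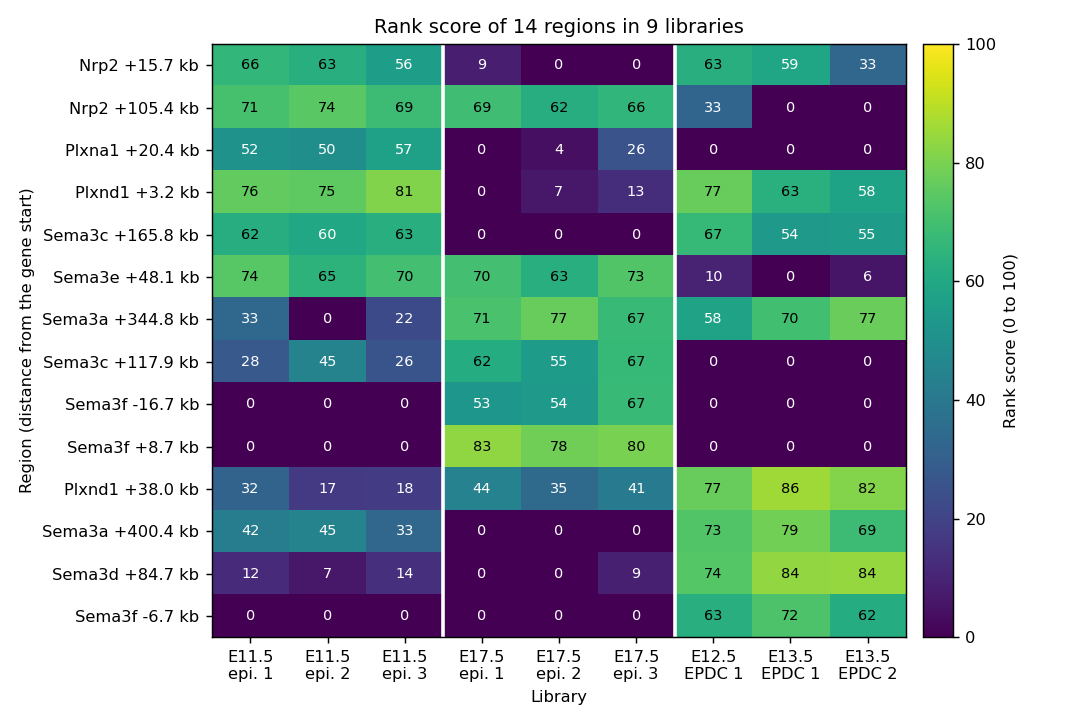
Heat map of the rank score (0 to 100, colour and printed value) in each of the 9 libraries of 14 regions, the up to 3 called regions of largest difference in each direction of each of the 3 comparisons, named by gene and distance from the gene start. The 3 libraries of a group can differ widely, as 33.4, 0.0485 and 22.5 at Sema3a +344.8 kb at E11.5, and Sema3f +8.7 kb scores 78.2 to 83.2 at E17.5 and 0 in the 6 other libraries.

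Promoters of 8 of the 9 genes were open in every library, with scores of 42.7 to 95.1. Between the epicardial stages, 3 of the 8 rose (against 13.7% of all promoters) and 0 fell (against 9.84%). In EPDCs, 3 were higher than at E11.5 (against 10.7%) and 1 lower (against 9.5%), and 2 were higher than at E17.5 (against 14.8%) and 2 lower (against 18.5%). The median differences of the 8 were 1.18, 4.46 and −0.70 rank points, beside 0.30, 0 and −0.22 over all 14922 promoters. Each gene's values follow with its other sites.

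**Figure D3:**
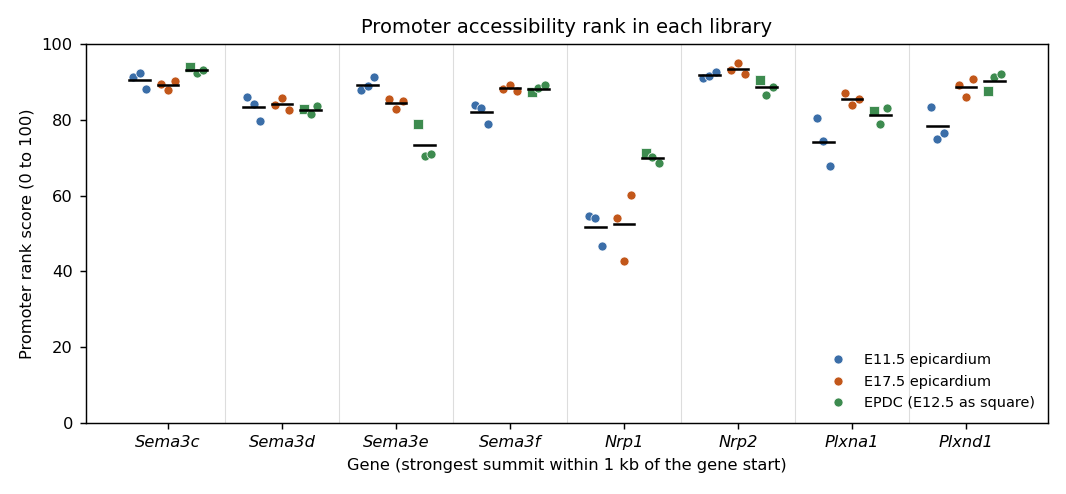
Rank score (0 to 100) of the strongest summit within 1 kb of the gene start in each library, for the 8 genes with a promoter summit (points are libraries, bars group means). Sema3e falls from 87.8 to 91.3 at E11.5 to 70.5 to 78.8 in EPDCs, and Plxnd1 climbs from 74.9 to 83.5 at E11.5 to 86.0 to 92.2 in the other groups.

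Sema3a (chr5:13125414-13602565, plus strand) encodes a repellent of axons that signals through Nrp1 and class A plexins. Of its 22 tested regions, 5 were higher in EPDCs than at E11.5 (against 12% of all regions) and 2 lower (13.6%), and 6 were higher than at E17.5 (17.4%) and 1 lower (16.5%). No summit lay within 1 kb of the annotated gene start. The start of the coding transcript, 274.0 kb further in and in an untranslated exon, was instead open in all libraries. It scored 86.7, 90.3 and 87.5 at E11.5, 84.8, 87.0 and 85.0 at E17.5, and 83.3, 83.6 and 84.0 in EPDCs. The EPDC libraries were all below the E11.5 libraries, by 4.50 points (SE 1.02, limma adjusted p = 0.0199), a call that was lost without E13.5 EPDC sample 1 (limma adjusted p = 0.0599), with all summits ranked (0.0515), on the log2 depth-normalized score (0.0671) and under ranking by fold enrichment, where the difference was −2.12 points (0.367).

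The intronic region at +400.4 kb had the largest contrast of the locus. It scored 42.0, 44.7 and 33.1 at E11.5, 0 in each E17.5 library, and 72.7, 78.8 and 68.7 in EPDCs, where it held 81, 133 and 238 fragments. The 3 groups did not overlap. The stage difference was −39.9 points (SE 3.62, limma adjusted p = 0.000346), and EPDCs were 73.4 points above E17.5 (limma adjusted p = 1.16e-05). A second intronic region, at +344.8 kb, separated E11.5 from the rest. It scored 33.4, 0.0485 and 22.5 at E11.5, 71.4, 76.7 and 67.3 at E17.5, and 57.7, 69.5 and 77.0 in EPDCs. The rise with stage was 53.1 points (SE 9.16, limma adjusted p = 0.00614), and the EPDC libraries were 49.4 points above E11.5 (limma adjusted p = 0.00877).

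Sema3c (chr5:17574281-17730268, plus strand) encodes a cue for neural crest cells of the outflow tract. Its strongest site outside the promoter was intronic, at +10.4 kb, and among the strongest summits of the whole E11.5 lists. It scored 98.2, 97.9 and 98.4 at E11.5, 87.6, 83.9 and 81.0 at E17.5, and 84.9, 69.7 and 70.5 in EPDCs. All E11.5 libraries were above all others. The EPDC deficit was 23.2 points (SE 4.18, limma adjusted p = 0.00785), and the stage difference of −14.0 points missed the threshold (limma adjusted p = 0.0527).

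A site beyond the Sema3c gene end, at +165.8 kb, had no summit in any E17.5 library. It scored 62.3, 59.9 and 62.7 at E11.5, 0 in the 3 E17.5 libraries, and 66.9, 54.2 and 55.2 in EPDCs. The score fell by 61.7 points between the epicardial stages (SE 3.30, limma adjusted p = 2.87e-05), and EPDCs were 58.8 points above E17.5 (limma adjusted p = 2.16e-05). The region at +117.9 kb was highest at E17.5 and uncalled among the ranked summits of EPDCs. It scored 27.8, 44.7 and 25.8 at E11.5, 61.9, 55.0 and 66.9 at E17.5, and 0 in each EPDC library, so the groups were fully apart, with EPDCs 61.3 points below E17.5 (SE 5.45, limma adjusted p = 0.000203). The promoter itself moved little. It scored 91.3, 92.3 and 88.1, then 89.5, 87.7 and 90.1, and 94.0, 92.4 and 93.2 in the same order of groups. The EPDC libraries were 4.08 points above E17.5 (SE 1.24, limma adjusted p = 0.0297), and that call was lost without E17.5 replicate 1 or 2 or any EPDC library (limma adjusted p = 0.0563 to 0.103).

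Sema3d (chr5:12383385-12588948, plus strand) encodes a cue known for guiding endothelial and neural crest cells, and its transcript is known from the early epicardium. Its promoter did not separate the groups. It scored 86.1, 84.1 and 79.7 at E11.5, 83.8, 85.6 and 82.7 at E17.5, and 83.0, 81.4 and 83.6 in EPDCs, and the groups overlapped (limma adjusted p = 0.633 to 0.864). The largest change lay in an intron, at +84.7 kb. There the scores were 12.4, 6.53 and 13.7 at E11.5, 0, 0 and 8.69 at E17.5, and 73.7, 83.7 and 84.3 in EPDCs, with 19 to 26 fragments in the epicardial libraries that called it and 71, 138 and 343 in EPDCs. EPDCs were 69.7 points above E11.5 (SE 3.96, limma adjusted p = 4.18e-05) and 77.7 points above E17.5 (limma adjusted p = 1.36e-05). The strongest site of the gene, at +124.4 kb, was lowest at E17.5. It scored 91.1, 92.7 and 93.4 at E11.5, 84.8, 81.7 and 84.3 at E17.5, and 92.8, 90.4 and 91.2 in EPDCs. It fell by 8.79 points with stage (SE 1.09, limma adjusted p = 0.00142), a call that was lost when summits were ranked by fold enrichment (adjusted p = 0.134).

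Sema3e (chr5:14025276-14256689, plus strand) encodes the ligand of plexin D1 and a repellent of blood vessels. It was the one gene without a rise in either comparison with E11.5. Of 14 tested regions, 4 fell between the epicardial stages (against 13.9% of all regions), 5 were lower in EPDCs than at E11.5 (13.6%) and 0 were higher (12%). The promoter, whose upstream sequence is shown above, scored 87.8, 88.9 and 91.3 at E11.5, 85.4, 82.8 and 85.0 at E17.5, and 78.8, 70.5 and 71.0 in EPDCs. The EPDC libraries were below every epicardial library. They were 15.9 points under E11.5 (SE 2.36, limma adjusted p = 0.00112) and 11.0 under E17.5 (limma adjusted p = 0.00605), and these calls held under each alternative tried.

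The intronic Sema3e region at +48.1 kb was high in both epicardial groups and low in EPDCs. It scored 74.0, 64.6 and 69.9 at E11.5, 70.3, 63.1 and 72.9 at E17.5, and 9.54, 0 and 5.85 in EPDCs. E13.5 EPDC sample 1 had no summit there and so no fragment count. Fragments numbered 40 to 68 in the epicardial libraries. They numbered 19 in E12.5 EPDC sample 1 and 51 in E13.5 EPDC sample 2, the library with the highest background. The difference was −64.4 points from E11.5 (SE 3.84, limma adjusted p = 5.29e-05) and −63.6 from E17.5 (limma adjusted p = 3.11e-05), while the epicardial stages differed by −0.75 (limma adjusted p = 1). The strongest Sema3e site outside the promoter, at +62.9 kb, separated the stages instead. It scored 71.4, 77.0 and 77.8 at E11.5, 43.3, 33.8 and 19.8 at E17.5, and 62.8, 53.4 and 52.9 in EPDCs. It fell by 43.1 points with stage (SE 6.16, limma adjusted p = 0.00271). Chosen after their values were seen, 2 further intronic sites, at +8.0 and +14.1 kb, were called in the E11.5 libraries alone, with scores of 35.3 to 39.6 and 37.6 to 51.9.

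Sema3f (chr9:107681500-107710475, minus strand) encodes a repellent that prefers Nrp2. Its promoter rose after E11.5. It scored 84.0, 83.1 and 78.8 at E11.5, 88.1, 89.2 and 87.5 at E17.5, and 87.4, 88.3 and 89.0 in EPDCs, and the E11.5 libraries were below all others. The difference was 6.32 points at E17.5 (SE 1.58, limma adjusted p = 0.0180) and 6.30 in EPDCs (limma adjusted p = 0.0199). The first call was lost without E17.5 replicate 1 or 2 (limma adjusted p = 0.0506 and 0.0660), and the second without E13.5 EPDC sample 1 or 2 (0.0682 and 0.0673) or in a fit of the 2 groups alone (0.0549). With all summits ranked they came to 2.55 and 2.88 points and both were lost (limma adjusted p = 0.347 and 0.266).

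Sites called in a single group surrounded the Sema3f promoter. The intronic region at +8.7 kb scored 83.2, 78.2 and 80.0 at E17.5, with 109, 189 and 165 fragments, and had no summit in the 6 other libraries. The gain with stage, 80.5 points, was the largest among the 188 regions. An intergenic region at −16.7 kb behaved alike, with 52.5, 54.0 and 67.4 at E17.5, no summit elsewhere, and a gain of 58.0 points. The intergenic region at −6.7 kb was called in EPDCs alone. It scored 63.2, 71.9 and 62.0 there, with 65, 109 and 221 fragments, a mean 65.7 points above both epicardial groups. All 3 of these regions were tested only through the group in which they were high. The strongest site counted for the gene, at +43.1 kb, lay in an exon of its neighbour Slc38a3 and scored 81.4 to 92.3 in all libraries with no call.

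**Figure D4:**
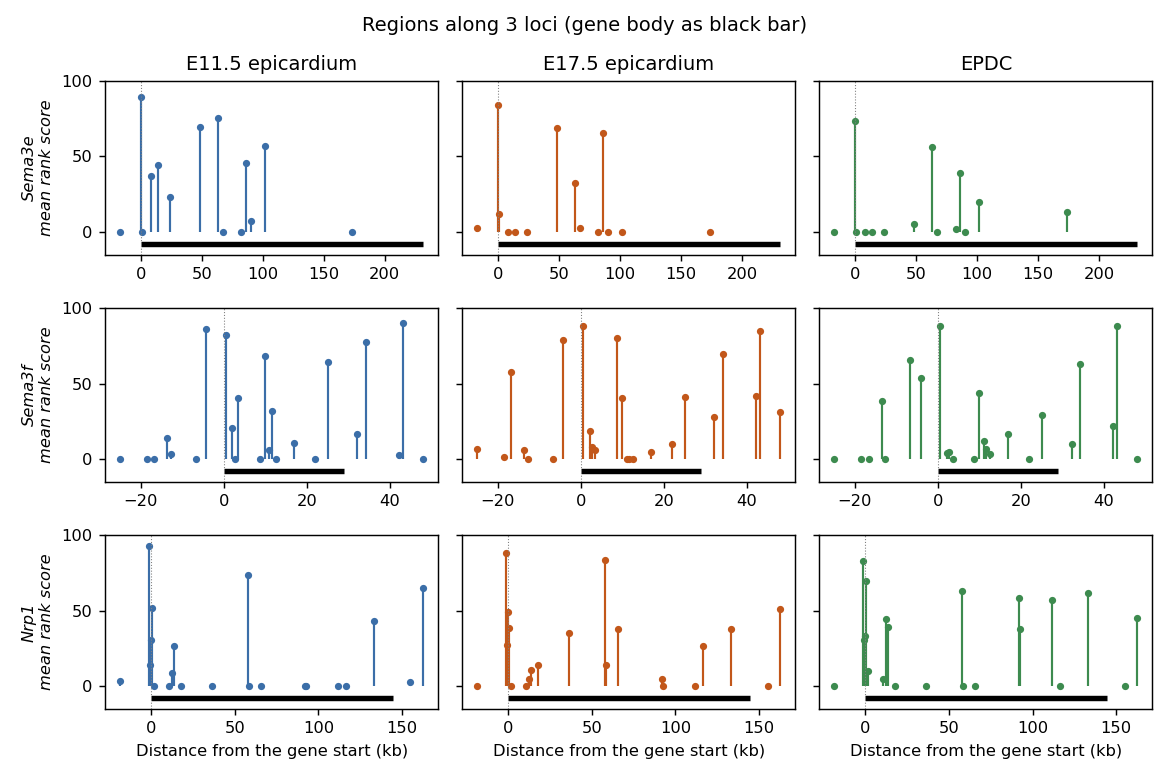
Tested regions of Sema3e, Sema3f and Nrp1 by distance from the gene start (kb, dotted line) and mean rank score of the 3 libraries of each group (0 to 100), with the gene as a black bar. The Sema3f sites at +8.7 and −16.7 kb stand up at E17.5 alone, and the Sema3e site at +48.1 kb is tall in both epicardial groups and near 0 in EPDCs.

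Nrp1 (chr8:128358604-128503363, plus strand) encodes the neuropilin that binds Sema3a and VEGF. Of its 21 tested regions, 4 rose between the epicardial stages (against 11.8% of all regions) and 0 fell (13.9%), and EPDCs differed from E17.5 at 10, 5 higher (17.4%) and 5 lower (16.5%). Within 1 kb of the gene start it scored 54.5, 54.1 and 46.7 at E11.5, 54.1, 42.7 and 60.2 at E17.5, and 71.1, 70.2 and 68.7 in EPDCs, the lowest promoter of the 8. The EPDC libraries stood above all others, by 18.2 points over E11.5 (SE 4.87, limma adjusted p = 0.0260) and 17.6 over E17.5 (limma adjusted p = 0.0195). Both differences turned negative within 500 bp of the start (−8.65 and −9.25 points), and the first was lost with all summits ranked (9.23 points, limma adjusted p = 0.166) and without E11.5 replicate 2 or 3 or any EPDC library (0.0556 to 0.0824), the second without E17.5 replicate 2, E12.5 EPDC sample 1 or E13.5 EPDC sample 1 (limma adjusted p = 0.0581 to 0.0608).

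The strongest Nrp1 site lay 1259 bp before the start, just outside the promoter window. It scored 91.1, 93.7 and 94.3 at E11.5, 87.5, 89.7 and 88.1 at E17.5, and 89.6, 80.9 and 78.4 in EPDCs. The EPDC libraries were 10.1 points below E11.5 on average (SE 2.82, limma adjusted p = 0.0426), which is the opposite direction to the promoter window, and the call was lost without any 1 of 8 libraries (limma adjusted p = 0.0670 to 0.126), the exception being E12.5 EPDC sample 1. It was also lost under ranking by fold enrichment (limma adjusted p = 0.571), with regions held by at least 1 library (0.0506) and in a fit of the 2 groups alone (0.110). Chosen after their values were seen, 2 intronic sites were high in EPDCs. The one at +91.9 kb scored 38.5, 71.5 and 66.2 in EPDCs against 14.7, 0 and 0 in E17.5 and 0 in E11.5 epicardium, and the one at +111.7 kb scored 32.7, 72.1 and 65.6 against 0 in all 6 epicardial libraries. In both, E12.5 was the lowest EPDC library. Also chosen after the fact, intronic sites at +36.3 and +65.4 kb were ranked at E17.5 alone, with scores of 20.3 to 43.3 and of 17.1 to 55.5.

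Nrp2 (chr1:62703285-62818695, plus strand) encodes the neuropilin that binds Sema3f and VEGF-C. It had the most tested regions, 34, of which 3 rose (against 11.8% of all regions) and 7 fell (13.9%) between the epicardial stages. The promoter was open throughout, with scores of 91.1, 91.6 and 92.7 at E11.5, 93.1, 95.1 and 92.1 at E17.5, and 90.4, 86.6 and 88.7 in EPDCs. EPDCs were 4.92 points below E17.5 with no overlap (SE 1.21, limma adjusted p = 0.0117). That call was lost without E17.5 replicate 2 (limma adjusted p = 0.0534) and turned to 1.33 points when summits were ranked by fold enrichment.

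A Nrp2 region in a coding exon, at +15.7 kb, was low at E17.5. It scored 66.2, 62.8 and 55.9 at E11.5, 8.52, 0 and 0 at E17.5, and 62.8, 58.8 and 33.0 in EPDCs. It fell by 58.8 points with stage (SE 8.07, limma adjusted p = 0.00226), and EPDCs were 48.7 points above E17.5 (limma adjusted p = 0.00366). The intronic region at +105.4 kb paired both epicardial groups. There the scores were 70.9, 74.4 and 68.7 at E11.5, 69.5, 62.2 and 65.9 at E17.5, and 32.7, 0 and 0 in EPDCs, where E12.5 was the only library with a ranked summit. EPDCs were 60.4 points below E11.5 (SE 8.83, limma adjusted p = 0.00323) and 55.0 below E17.5 (limma adjusted p = 0.00319). The strongest site outside the promoter, at +3.2 kb, ranged from 63.5 to 85.0 with no call.

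Plxna1 (chr6:89316314-89362620, minus strand) encodes a class A plexin, the signalling subunit of a receptor with a neuropilin. Its promoter rose with stage, from 80.4, 74.5 and 67.8 at E11.5 to 87.0, 83.8 and 85.4 at E17.5, and EPDCs scored 82.2, 79.0 and 83.0. The rise was 11.2 points (SE 2.96, limma adjusted p = 0.0226) and was lost without E11.5 replicate 2 or any E17.5 library (limma adjusted p = 0.0525 to 0.0799) and with all summits ranked, where it was 5.64 points (0.126). Of 12 tested regions at the gene, 3 fell (against 13.9% of all regions) and 1 rose (11.8%) between the stages, and 3 were lower (13.6%) and 1 higher (12%) in EPDCs than at E11.5. The intron at +20.4 kb scored 51.5, 49.9 and 57.4 at E11.5, 0, 4.14 and 25.5 at E17.5, and 0 in each EPDC library. All E11.5 libraries were above all others, by 43.0 points over E17.5 (SE 6.48, limma adjusted p = 0.00341) and 52.9 over EPDCs (limma adjusted p = 0.00149). The strongest site, at +17.47 kb, scored 88.4 to 96.0 in all libraries and fell by 5.39 points with stage (SE 1.26, limma adjusted p = 0.0210), which was lost without E11.5 replicate 2 or 3 or E17.5 replicate 1 or 3 (limma adjusted p = 0.0580 to 0.0651), under ranking by fold enrichment (0.0965) and on the log2 depth-normalized score (0.0582).

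Plxnd1 (chr6:115954811-115995005, minus strand) encodes the receptor of Sema3e, best known from endothelium. Its promoter, whose upstream sequence is shown above, scored 83.5, 74.9 and 76.5 at E11.5, 89.3, 86.0 and 90.8 at E17.5, and 87.5, 91.3 and 92.2 in EPDCs. All 6 later libraries were above the E11.5 libraries. The rise with stage was 10.4 points (SE 2.39, limma adjusted p = 0.0126), lost without E17.5 replicate 3 (limma adjusted p = 0.0562) and, at 5.58 points, with all summits ranked (0.0519). EPDCs were 12.0 points above E11.5 (limma adjusted p = 0.00639), a call that held under each alternative tried. The Sema3e promoter was thus lowest in EPDCs while the promoter of its receptor was lowest at E11.5.

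Inside Plxnd1, the intron at +3.2 kb was lowest at E17.5. It scored 76.1, 75.3 and 81.1 at E11.5, 0, 6.63 and 13.2 at E17.5, and 76.8, 63.4 and 57.9 in EPDCs. The fall was 70.9 points (SE 5.53, limma adjusted p = 0.000170), and EPDCs were 59.4 points above E17.5 (limma adjusted p = 0.000251), which was lost under ranking by fold enrichment (limma adjusted p = 0.0976). The intron at +38.0 kb was highest in EPDCs. It scored 31.9, 17.0 and 18.0 at E11.5, 44.5, 34.6 and 41.0 at E17.5, and 76.8, 85.6 and 81.6 in EPDCs, and the groups did not overlap. EPDCs were 59.0 points above E11.5 (SE 4.86, limma adjusted p = 0.000245) and 41.3 above E17.5 (limma adjusted p = 0.000764), while the rise with stage, 17.7 points (limma adjusted p = 0.0390), was lost in 13 of 19 alternatives, among them the omission of each library other than E11.5 replicate 1 and E17.5 replicate 2 (limma adjusted p = 0.0513 to 0.114). The strongest site outside the promoter, at +51.3 kb and beyond the gene end, was lowest at E17.5. It scored 81.7, 87.4 and 87.3 at E11.5, 71.7, 64.0 and 69.0 at E17.5, and 88.2, 91.1 and 90.6 in EPDCs, a fall of 17.2 points with stage (SE 2.42, limma adjusted p = 0.00253), which came to −9.97 points and was lost under ranking by fold enrichment (limma adjusted p = 0.0849).

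The size of several differences depended on the score ranked. With summits ranked by fold enrichment, the Plxna1 +20.4 kb differences of E17.5 and EPDCs from E11.5 were both −11.1 points, the EPDC deficit at Sema3c +10.4 kb was 9.82 and the stage difference at Plxnd1 +3.2 kb was −44.2, each still called (limma adjusted p = 0.0102 to 0.0275). Among promoters, the same ranking put the stage rises at 22.8 points for Sema3f, 20.1 for Plxna1 and 35.1 for Plxnd1, and the EPDC differences from E11.5 at 41.1 for Sema3f, 24.9 for Plxnd1, 32.8 for Nrp1 and −10.0 for Sema3e. From E17.5, EPDCs then differed by 15.3 at Sema3c and −6.18 at Sema3e, and each of these promoter calls was kept (limma adjusted p = 0.00031 to 0.0452). With all summits ranked, the differences from E11.5 at Sema3a +344.8 kb came to 32.7 at E17.5 and 30.0 in EPDCs, and that of EPDCs at the Plxnd1 promoter to 7.01, all still called (limma adjusted p = 0.00446 to 0.0186).

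Counted together among the 94909 strongest summits of each list, the 9 loci held 110 to 122 summits. The sums were 113, 119 and 110 at E11.5, 114, 117 and 122 at E17.5, and each EPDC library was within 1 of 116. The means were 114 ± 4.58, 118 ± 4.04 and 116 ± 1 (SD, n = 3 libraries). The groups overlapped, and the differences of 3.67, 2 and −1.67 summits gave p = 0.4, 0.6 and 0.8 in a two-sided exact permutation test, in which 20 assignments allow no p below 0.1. With all summits of each list the sums were 144 to 181 at E11.5, 114 to 167 at E17.5 and 152 or less in EPDCs, and the differences from E11.5 turned to −22.3 at E17.5 and −27.7 in EPDCs.

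Counts at single loci differed between groups, though no call on them held under every alternative tried. Sema3e went from 9, 8 and 9 summits at E11.5 to 6, 5 and 6 at E17.5 and 7, 6 and 6 in EPDCs. Nrp1 went from 10, 12 and 10 to 17, 15 and 17, and to 18, 15 and 15 in EPDCs. Sema3a held 14, 12 and 11 at E11.5, 11, 10 and 9 at E17.5, and 15, 17 and 19 in EPDCs. Plxna1 held 12, 16 and 10, then 8, 10 and 7, and 7, 6 and 6. The E11.5 counts of Sema3e and Nrp1 did not overlap those of the other groups, the E11.5 and E17.5 counts of Plxna1 met at 10, and the EPDC counts of Sema3a were the highest of the locus, the E12.5 library at 15 being the lowest of the 3. The share of all loci without overlap was not taken.

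On the scale of log2(summits + 1), 2 of 9 loci rose between the epicardial stages (against 11.9% of all loci) and 3 fell (against 8.28%). Nrp1 rose by 0.57 (SE 0.11, limma adjusted p = 0.00532) and Sema3f by 0.42 (limma adjusted p = 0.0424), while Sema3e fell by 0.54 (limma adjusted p = 0.00967), Plxna1 by 0.54 (limma adjusted p = 0.0447) and Sema3c by 0.37 (limma adjusted p = 0.0318). In EPDCs, 2 loci were above E11.5 (against 7.58%) and 2 below (against 8.94%): Nrp1 by 0.54 (limma adjusted p = 0.00773) and Sema3a by 0.43 (limma adjusted p = 0.0349) above, Plxna1 by −0.88 (limma adjusted p = 0.00592) and Sema3e by −0.40 (limma adjusted p = 0.0396). Against E17.5, 1 was higher (against 11.3%), Sema3a by 0.71 (limma adjusted p = 0.00164), and 0 lower (against 20%). None of these 10 calls held under every alternative. The stage call of Sema3e was lost within 50 kb (−0.31, limma adjusted p = 0.0891) and at a −log10 q of at least 5 (0.0653). The EPDC call of Plxna1 against E11.5 was lost within 10 kb (−0.56, limma adjusted p = 0.148). It was also lost at that −log10 q (0.0537) and in a fit of the 2 groups alone (0.0564). With single libraries left out, the stage call of Plxna1 was lost without any 1 of the 9 (limma adjusted p = 0.0665 to 0.200), that of Sema3f without any but the E13.5 EPDC samples (0.0601 to 0.186), and that of Sema3c without E11.5 replicate 1 or 3 or any E17.5 replicate (0.0686 to 0.0806). Of the EPDC calls against E11.5, Sema3a was lost without E11.5 replicate 2 or 3, E17.5 replicate 1 or 2 or either E13.5 EPDC sample (limma adjusted p = 0.0688 to 0.156), Sema3e without any E11.5 replicate or either E13.5 EPDC sample (0.0526 to 0.0969), Nrp1 without E11.5 replicate 3 (0.0571) and Plxna1 without E13.5 EPDC sample 1 (0.0518). With all summits of each list in place of the top 94909, the median over all loci shifted to −0.11, −0.21 and −0.07, and the Nrp1 difference of EPDCs and the Sema3f difference with stage came to −0.0045 and −0.0059. The stage rise of Nrp1 then came to 0.22 (limma adjusted p = 0.423) and the Sema3a differences of EPDCs to 0.03 from E11.5 (0.952) and 0.60 from E17.5 (0.0579), and all 3 calls were lost.

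**Figure D5:**
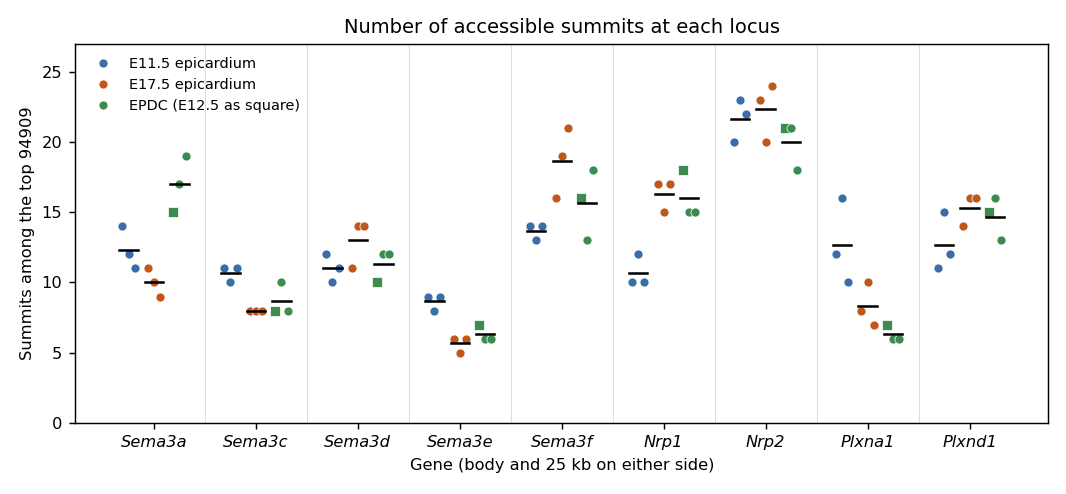
Number of summits among the 94909 strongest of each library in each gene and 25 kb on either side (points are libraries, bars group means). Sema3e falls from 8 to 9 at E11.5 to 5 to 7 elsewhere, and Nrp1 climbs from 10 to 12 to 15 to 18.

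The single E12.5 EPDC library was set beside the E13.5 EPDCs. Among the 25 regions higher in EPDCs than at E11.5, E12.5 scored below both E13.5 libraries in 16 (64%), with a mean of 50.5 against 59.3. Among the 33 lower regions it scored above both in 17 (51.5%), with a mean of 33.9 against 26.3. The shares over all called regions, 59.4% and 42.9%, were close to these, and with 1 library at E12.5 no test of stage was made.

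Other genes of the pathway were read at their promoters, 42 of 42 being tested. Between the epicardial stages 3 rose (7.14%, against 13.7% of all promoters) and 4 fell (9.52%, against 9.84%). In EPDCs, 6 were higher than at E11.5 (14.3%, against 10.7%) and 2 lower (4.76%, against 9.5%), and 9 were higher than at E17.5 (21.4%, against 14.8%) and 4 lower (9.52%, against 18.5%). Of the secreted ligands, Sema3b rose by 19.0 points with stage (SE 5.40, limma adjusted p = 0.0306) and was 22.1 lower in EPDCs than at E17.5 (limma adjusted p = 0.0113), and Sema3g was lower in EPDCs by 12.2 and 11.6 points (limma adjusted p = 0.0141 and 0.0115). Of the membrane-bound semaphorins, Sema6b rose by 22.9 with stage (limma adjusted p = 0.0468) and was 26.1 above E11.5 in EPDCs (limma adjusted p = 0.0313), Sema5b fell by 18.3 (limma adjusted p = 0.00423), and Sema4c fell by 5.14 (limma adjusted p = 0.0381).

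Among the other plexins, Plxnc1 was higher in EPDCs by 26.2 points over E11.5 (SE 7.13, limma adjusted p = 0.0279) and by 31.3 over E17.5 (limma adjusted p = 0.00799), Plxnb1 by 16.0 over E11.5 (limma adjusted p = 0.0393), and Plxnb2 was 4.90 below E11.5 (limma adjusted p = 0.0190). Adhesion molecules that take part in semaphorin receptors split, with Nrcam 36.8 higher (limma adjusted p = 0.00997) and Chl1 25.7 lower (limma adjusted p = 0.0154) in EPDCs than at E17.5. Of the cytoplasmic effectors, the kinase Fes rose by 18.6 with stage (limma adjusted p = 0.0112), the kinase Cdk5 fell by 2.62 (limma adjusted p = 0.000808), and the collapsin response mediator Dpysl4 fell by 20.6 (limma adjusted p = 0.0102) and was 19.8 higher in EPDCs than at E17.5 (limma adjusted p = 0.00830). The median differences of the list were 0.69, 0.29 and 0.84 points, beside 0.30, 0 and −0.22 over all promoters.

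The distance of 25 kb cuts through active chromatin. The 9 regions 20 to 25 kb outside a gene had mean scores of 0 to 41.0 (median 8.02), and the 7 regions 25 to 30 kb outside, which were not counted, had 3.96 to 78.0 (median 63.0).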

How the data were processed

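ATAC-seq peak lists of 9 libraries from 10 samples were analysed. Groups and replicate numbers came from the sample labels, and E12.5 and E13.5 EPDCs formed 1 group, as in the study. Replicates are separate samples of pooled littermate hearts, so the spread is between pools. The members and lists were chosen with earlier results of these data known.

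The authors processed the reads with the nf-core atacseq pipeline on mm10 and called peaks with MACS2 2.2.9.1 on whole fragments, keeping every summit. The deposited lists give for each summit a fold enrichment, a ratio over local background, and a −log10 p and −log10 q from the peak caller. No value was normalized between libraries. The authors' edgeR test used reads counted in windows, which peak lists do not hold, and is not repeated here. The EPDC lists also hold 252 to 268 summits on other sequences, which were left out, and their −log10 p reached 20589.5 to 70107 against 559 to 891 in the epicardial lists (medians 21.9 to 38.0 and 19.3 to 24.1), so population, stage and list processing cannot be told apart.

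Summits on chromosomes 1 to 19, X and Y were extended to 501 bp and merged by strength into non-overlapping regions. The top 94909 summits of each list were ranked by −log10 p. Rank scores of regions, promoters and log2(summits + 1) of loci were fitted with limma 3.58.1 (R 4.3.3, trend and robust) over all 9 libraries, without covariates, and p-values were adjusted by Benjamini-Hochberg over all features. Fragments were solved from fold enrichment and −log10 p, and 99.98% to 100% of the summits checked gave whole numbers within 0.02. Peaks ended within the GRCm38.p6 lengths on 21 of 21 chromosomes. Scripts were tested on simulated data. 1 marker list is not reported here. With 3 libraries a group, precision is limited.

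Named items were every member promoter, the up to 3 non-overlapping called regions of largest difference in each comparison and direction, the strongest region of each gene outside the promoter, and up to 4 called pathway promoters in each direction. Alternatives changed the summits ranked, the ranking score, the peak threshold, the scale, the assignment and distance of peaks, the promoter width, the libraries fitted and the replicate block.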

Additional observations from a re-analysis of the deposited data

How the results depend on the processing

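Single regions were followed through the alternatives only where named, which was by size of difference or by strength. They do not stand for the other region calls. Of 42 called differences at the named regions, 28 kept direction and call under every alternative and none reversed (717 of 770 values kept both). Of the 28, 6 were those of the 3 Sema3f regions that passed the filter through 1 group. Direction and call held everywhere in 3 of 11 promoter differences (144 of 177) and 0 of 10 locus differences (95 of 155). With all summits ranked, the 3 promoter calls between the stages dropped to 0 and those of EPDCs against E11.5 to 2, and locus calls came to 3 (stages) and 0 (EPDCs against E17.5). Region calls then split 14 higher to 50 lower, 26 to 48 and 40 to 28, and higher calls among all regions fell from 46.1% to 26.8% between the stages and from 46.9% to 31.3% for EPDCs against E11.5. Summed summits then reversed to −22.3 and −27.7 (stages, EPDCs against E11.5). The log2 depth-normalized score called 76 (stages) and 88 regions (EPDCs against E11.5), in place of 49 and 58. Promoters within 500 bp gave 2 calls for EPDCs against E11.5, and Nrp1 reversed to −8.65 and −9.25, as did Nrp2 (1.33) under fold enrichment. Locus calls came to 2 (stages) and 2 (EPDCs against E17.5) at a −log10 q of at least 5, to 2 (stages) and 2 (EPDCs against E11.5) within 10 kb, to 3 (stages) within 50 kb, and to 3 and 1 with only the groups compared. The Sema3f and Nrp1 loci reversed to −0.0059 and −0.0045 with all summits ranked. Summed summits reversed to −1 within 50 kb (stages) and, for EPDCs against E17.5, to 1 at that −log10 q, 0.333 within 10 kb and 2.67 within 50 kb. The cause of these shifts was not tested.

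Leaving out 1 library gave, for the stages, EPDCs against E11.5 and EPDCs against E17.5, 38 to 50, 46 to 67 and 58 to 68 regions, 1 to 3, 2 to 5 and 1 to 4 promoters, 2 to 4, 1 to 4 and 1 loci, and summed differences of 1.5 to 6.17, 0 to 4.5 and −3.5 to 0.5. Replicate numbers did not pair the epicardial samples (correlations of same-numbered deviations 0.0217, 0.0495 and −0.0390), and not every sample correlated best with its own number. With the replicate block, 21 regions (7 higher, 14 lower), 2 promoters and 3 loci were called between the stages. Assigning each summit to the nearest region, chosen after seeing the data, was added as an alternative. The background was lowest in E17.5 replicate 1, at 2.07 fragments, and the effect of depth on weak sites was not tested.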
